A study of Homo sapiens with 18 samples.

Results

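The insulin-like growth factor (IGF)-binding and CCN genes were followed through RNA-seq libraries of THP-1, an established human line of monocytic leukaemia cells. They are 5 IGF-binding protein genes (IGFBP2, IGFBP3, IGFBP4, IGFBP6 and IGFBP7) and 3 CCN genes (CTGF, CYR61 and WISP1, also called CCN2, CCN1 and CCN4), found as the rows whose Ensembl identifier carries one of these symbols in GENCODE 29. All 8 symbols were found, among 57500 genes in the deposited tables. They were chosen by name with their levels (TPM) and fold changes over the 6 groups of the same libraries known, so these levels and differences are given as a description, without p-values. Cells carried a lentiviral short hairpin RNA without a target (shNT), one against NR4A2 (shNR4A2) or one against NR4A3 (shNR4A3), which code for orphan nuclear receptors. All 3 lines were maintained in medium with puromycin, and each targeted line rests on 1 hairpin line. All cells stood for 2 h in buffered DMEM before they were left untreated (control) or given 2.5 µg/ml LPS for 2 h more. Each of the 6 groups held 3 libraries, described by the study as independent experiments, and the 18 libraries held between 16171161 and 23929138 counts. Of the 8 genes, 6 passed the filter on low counts in every comparison, and IGFBP6 and WISP1 did not.

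IGF-binding proteins are secreted proteins that hold IGF1 and IGF2 outside the cell and so set how much of each ligand reaches the IGF1 receptor. IGFBP7 binds IGFs weakly and insulin more readily than the classical members do. CCN proteins are secreted matricellular proteins that share an IGFBP-like module and act through integrins, syndecans and LRP receptors. CTGF and CYR61 are textbook targets of the Hippo pathway effectors YAP and TAZ, which act through TEAD factors, and CTGF is also a textbook target of TGF-beta.

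The start site regions of the genes with the largest LPS differences, CTGF and IGFBP3, are shown because the pathway genes described further on include the TEAD factors. The RefSeq windows hold 250 bases before and 50 bases from the annotated start on, are written 5′ to 3′ on the gene's strand, and carry coordinates of GRCh38.p14. Capitals mark a TEAD match, CATTCC or its reverse complement. The window of CTGF is chr6:131951323-131951622 (minus strand) and that of IGFBP3 is chr7:45921223-45921522 (minus strand). The IGFBP3 window lies inside the gene as counted, whose 5′ end is at 45921874, and the bases before that end were not searched.
CTGF: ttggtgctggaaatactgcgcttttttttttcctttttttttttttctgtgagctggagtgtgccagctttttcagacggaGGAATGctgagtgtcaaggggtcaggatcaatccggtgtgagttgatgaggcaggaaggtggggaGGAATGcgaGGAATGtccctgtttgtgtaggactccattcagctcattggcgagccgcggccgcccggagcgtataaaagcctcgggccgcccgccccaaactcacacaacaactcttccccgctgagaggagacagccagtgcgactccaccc
IGFBP3: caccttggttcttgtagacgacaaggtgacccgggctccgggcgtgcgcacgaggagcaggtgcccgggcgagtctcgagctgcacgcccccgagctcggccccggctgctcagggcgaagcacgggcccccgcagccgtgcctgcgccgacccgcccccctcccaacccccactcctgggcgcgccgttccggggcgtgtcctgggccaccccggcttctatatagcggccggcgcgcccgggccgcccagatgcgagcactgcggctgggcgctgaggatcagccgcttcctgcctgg
The CTGF window held 3 TEAD matches, whose first bases lie at -169, -104 and -95 from the start site, and the IGFBP3 window held no TEAD match. A search on both strands also covered the NR4A monomer element NBRE (AAAGGTCA) and the AP-1 element (TGANTCA). The 3 TEAD matches do not overlap one another. Neither the NBRE nor the AP-1 element was found in the windows of CTGF, IGFBP2, IGFBP3, IGFBP4 or IGFBP6, and IGFBP6 held 1 TEAD match at -101. Of all 35116 windows of 300 bases in the same table, 14.0% held a TEAD match, 1.22% an NBRE match and 7.71% an AP-1 match. A match describes letters in the window only. CYR61, IGFBP7 and WISP1 had no window in the table.

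CTGF was the most abundant of the 8 transcripts over the 18 libraries, with a mean of 473 TPM (transcript abundance scaled to a fixed total per library, computed from the counts and the deposited exon length, and so comparable between genes). It was followed by IGFBP7 at 138 TPM, IGFBP3 at 75.3, IGFBP4 at 52.6, IGFBP2 at 28.8, CYR61 at 6.45, IGFBP6 at 0.584 and WISP1 at 0.0134 TPM. The order differed with the treatment and the line. In bulk RNA, fewer cells that express a gene and less RNA per cell cannot be told apart. In shNT control cells it ran from IGFBP7 (64.8 ± 6.75 TPM, SD, n = 3) over IGFBP4 (54.5 ± 5.04), IGFBP2 (35.4 ± 7.18), CTGF (18.8 ± 1.54) and IGFBP3 (10.3 ± 1.90) to CYR61 (5.97 ± 0.703). Of these neighbours, only IGFBP7 and IGFBP4 had overlapping libraries. In shNT cells with LPS, CTGF led at 1634 ± 261 TPM (SD, n = 3), ahead of IGFBP3 at 130 ± 25.4, IGFBP7 at 63.6 ± 7.44, IGFBP4 at 37.5 ± 0.891, IGFBP2 at 34.5 ± 5.89 and CYR61 at 10.4 ± 1.92 TPM, and only IGFBP4 and IGFBP2 overlapped among the neighbours. In shNR4A3 control cells IGFBP7 stood at 273 ± 31.0 TPM, above IGFBP4 at 64.9 ± 7.04, and CTGF was down at 4.75 ± 1.08 TPM, where its libraries overlapped those of CYR61 at 4.99 ± 0.125.

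**Figure D1:**
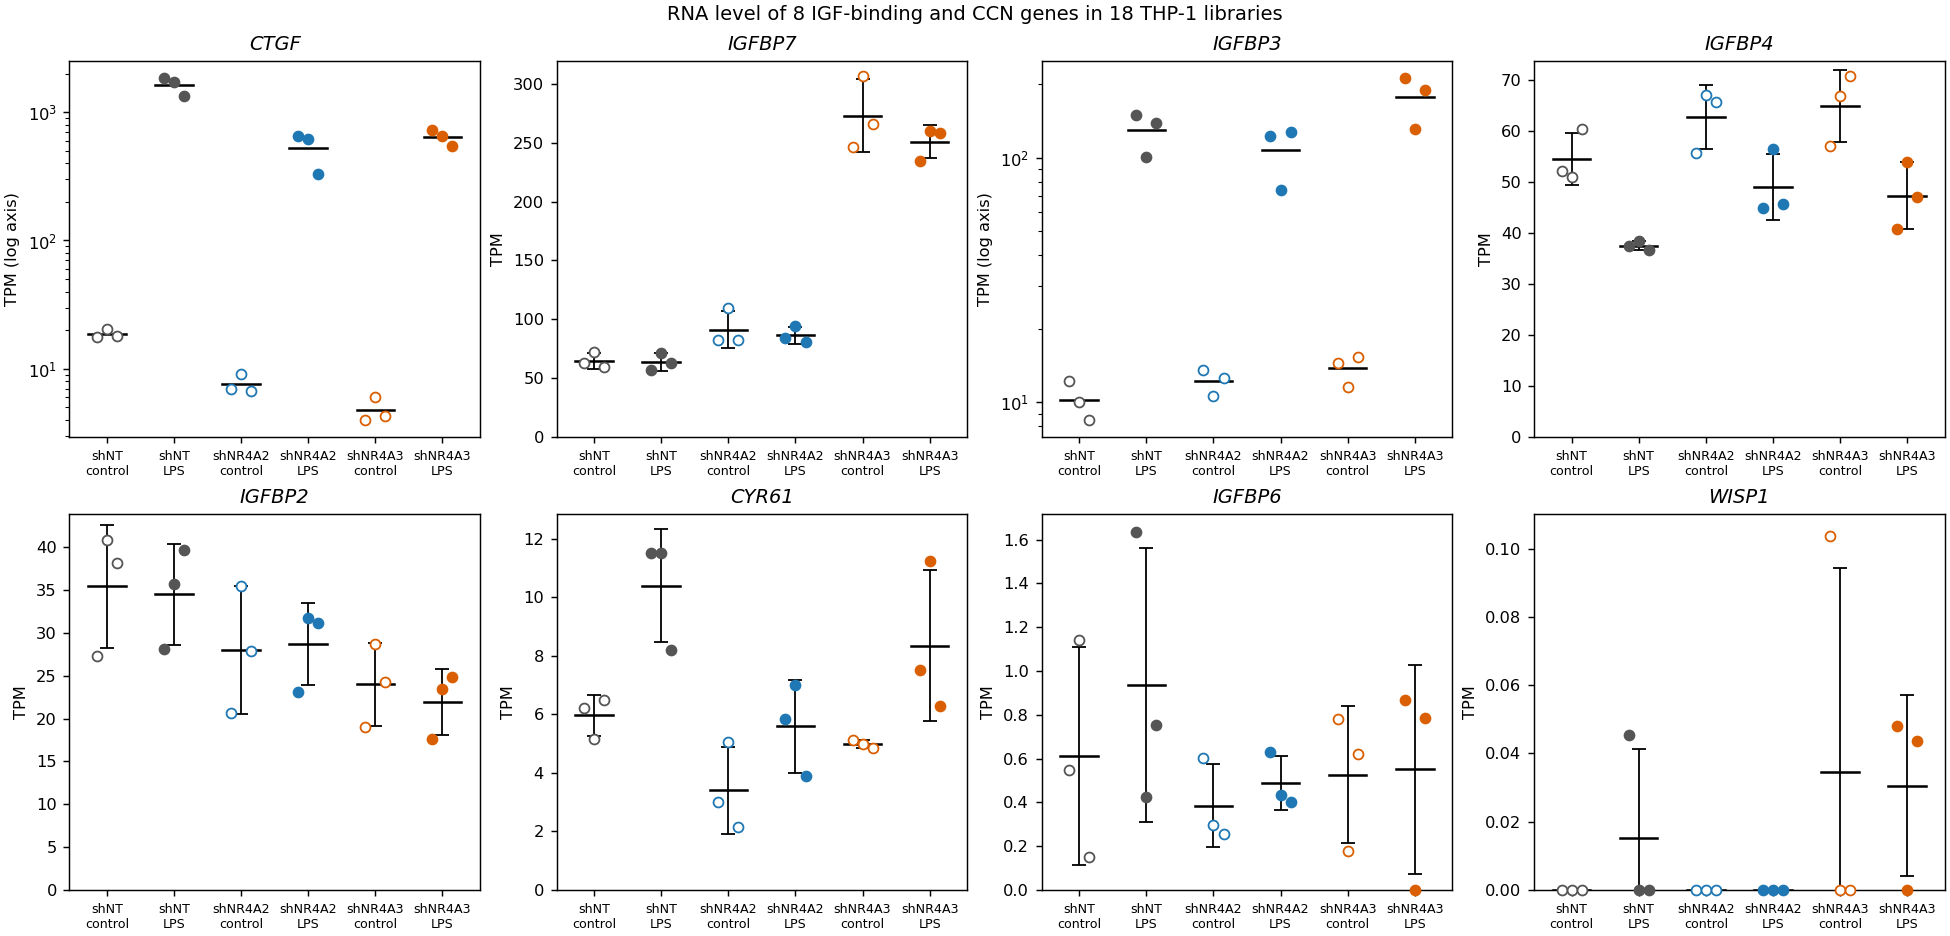
TPM of the 8 genes in each library of the 6 groups, with open points for control, filled points for LPS, a bar at the mean of 3 libraries and, on the linear axes, whiskers of 1 SD; CTGF and IGFBP3 have a log axis. CTGF and IGFBP3 were high in all 9 LPS libraries, and IGFBP7 was high in the 6 shNR4A3 libraries.

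Added together, the 8 transcripts made up 190 ± 11.3 TPM in shNT control cells and 1911 ± 256 TPM in shNT cells with LPS (SD, n = 3 each). The sums were 206 ± 27.9 and 808 ± 165 TPM in shNR4A2 cells and 386 ± 39.1 and 1149 ± 82.7 TPM in shNR4A3 cells, without and with LPS. CTGF held 9.88% of the sum in shNT control cells and 85.3% with LPS, 3.67% and 64.3% in shNR4A2 cells, and 1.22% and 55.7% in shNR4A3 cells. The share of IGFBP7 went the other way, from 34.0% in shNT control cells to 70.7% in shNR4A3 control cells. Ranked among the 46226 genes with a count, CTGF stood at position 7040 in shNT control cells and at position 71 in shNT cells with LPS.

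**Figure D2:**
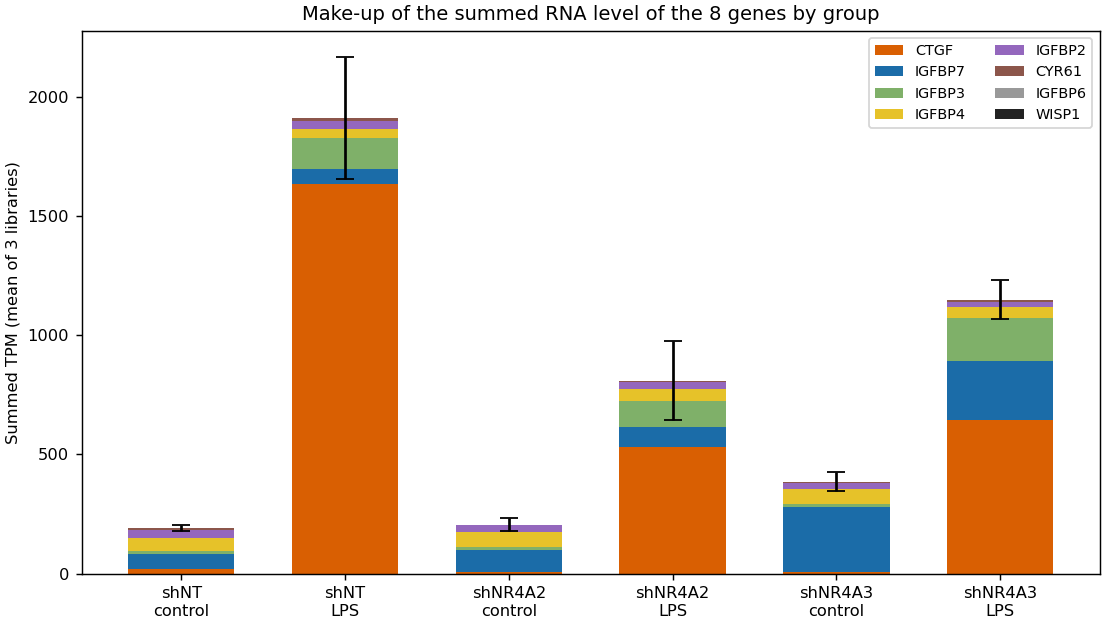
Mean TPM of the 8 genes stacked by group, with whiskers of 1 SD of the summed TPM over 3 libraries. CTGF fills most of each LPS bar, and IGFBP7 fills most of the shNR4A3 control bar.

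Differences were fitted with edgeR's quasi-likelihood test on counts scaled by TMM, and a gene is called where its p-value, adjusted over all genes tested, is under 0.05. With LPS, 4 of the 6 tested genes were called in shNT cells, where 24.9% of all genes tested were, with 3 higher (11.6% of all genes) and 1 lower (13.3%). In shNR4A2 cells LPS gave 2 calls (19.3%), both higher (9.23%) and none lower (10.1%), and in shNR4A3 cells 3 calls (28.1%), all higher (13.1%). Control and LPS libraries did not overlap for 4, 2 and 4 of the 6 in the 3 lines, against 48.5%, 46.0% and 51.6% of all genes tested. In shNR4A2 against shNT cells, 1 was called without LPS (6.45%), 0 higher (3.63%) and 1 lower (2.82%), and 3 with LPS (6.96%), 2 higher (4.31%) and 1 lower (2.65%). In shNR4A3 against shNT cells, 2 were called without LPS (7.23%), 1 higher (3.91%) and 1 lower (3.32%), and 4 with LPS (6.45%), 2 higher (3.99%) and 2 lower (2.46%). Groups were apart for 3 and 4 genes in shNR4A2 cells (25.7% and 27.2% of all genes) and for 3 and 4 in shNR4A3 cells (24.3% and 27.9%), without and with LPS. With the replicate number as a block, 3 of the 6 were called with LPS in shNR4A2 cells (30.1% of all genes), 4 and 6 in shNR4A2 against shNT cells (23.6% and 28.1%) and 4 and 5 in shNR4A3 against shNT cells (14.8% and 21.8%). Since the 8 genes were put together with these differences known, nothing is read from the counts. A call of 1 of the 8, and its holding in other fits, describes these same libraries. It is no independent support. Both knockdown lines were set against the same shNT libraries, so their differences are not independent of each other.

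**Figure D3:**
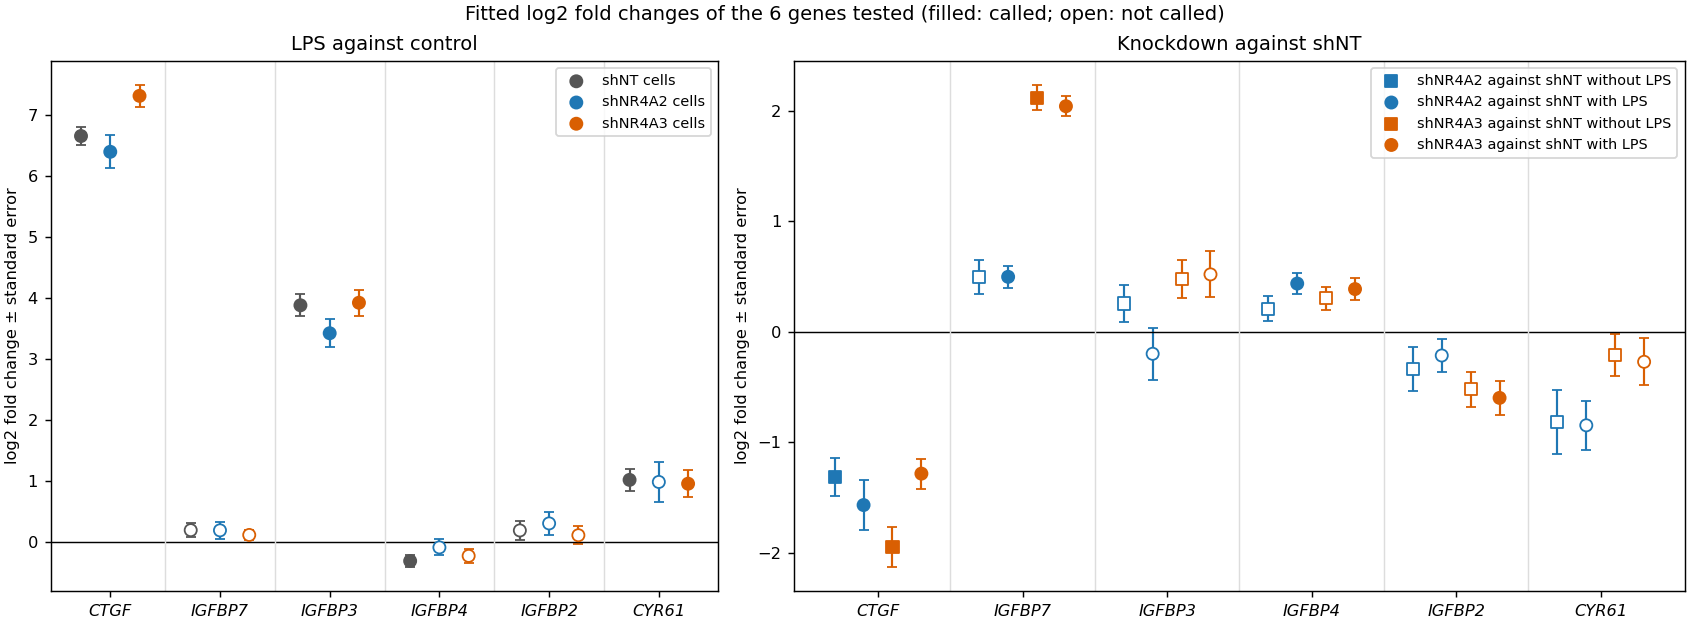
Fitted log2 fold change of the 6 tested genes with its standard error, for LPS against control (left) and knockdown against shNT (right, squares without LPS and circles with LPS); filled points passed an adjusted p under 0.05. CTGF and IGFBP3 lie highest on the left, and CTGF (lower) and IGFBP7 (higher in shNR4A3) lie farthest from 0 on the right.

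CTGF codes for connective tissue growth factor, a secreted CCN protein of wound repair and fibrosis (ENSG00000118523, chromosome 6, 131948176 to 131951373, minus strand, GRCh38). The shNT control libraries held 17.7, 20.6 and 18.1 TPM and the shNT LPS libraries 1841, 1720 and 1341 TPM. The shNR4A2 libraries held 6.97, 9.05 and 6.68 TPM without LPS and 647, 613 and 330 TPM with LPS. The shNR4A3 libraries held 4.00, 6.0 and 4.26 TPM without LPS and 725, 655 and 547 TPM with LPS. Every LPS library lay far above every control library, and the shNT libraries of a treatment stood above those of both knockdown lines. The log2 fold change with LPS was 6.66 (SE 0.140) in shNT cells, 6.40 (SE 0.272) in shNR4A2 cells and 7.32 (SE 0.176) in shNR4A3 cells, which are rises of 101-fold, 84.4-fold and 159-fold. In shNR4A2 cells CTGF was lower than in shNT cells by a log2 fold change of -1.31 (SE 0.175) without LPS and -1.57 (SE 0.224) with LPS. The corresponding values in shNR4A3 cells were -1.95 (SE 0.182) and -1.28 (SE 0.135). All 7 differences were called, also with each library left out and under every other setting tried. A stretch of 195 exon bases is shared with the antisense gene AL133346.1, which had at most 35 counts in a library while CTGF had between 47 and 24709.

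CYR61 codes for the other CCN protein with measurable counts (ENSG00000142871, chromosome 1, 85580761 to 85583962, plus strand), a matrix protein of cell adhesion and angiogenesis. It stood at 6.22, 5.17 and 6.51 TPM in the shNT control libraries and at 11.5, 11.5 and 8.19 TPM with LPS. In shNR4A2 cells it stood at 3.01, 5.05 and 2.14 TPM in control and at 5.84, 7.02 and 3.90 TPM in LPS libraries. The shNR4A3 libraries had 5.11, 4.98 and 4.87 TPM and 7.53, 11.2 and 6.27 TPM. LPS libraries were apart from control libraries in shNT and shNR4A3 cells and overlapped them in shNR4A2 cells. Its log2 fold change with LPS was 1.01 (SE 0.177) in shNT cells and 0.95 (SE 0.221) in shNR4A3 cells, both past the threshold, and 0.98 (SE 0.323) in shNR4A2 cells, which missed it. With the replicate number as a block the last was 1.00 and passed, as it did under the other 4 settings tried. The knockdown differences of CYR61 did not pass: -0.82 (SE 0.287) and -0.85 (SE 0.224) in shNR4A2 cells without and with LPS, and -0.21 (SE 0.190) and -0.27 (SE 0.213) in shNR4A3 cells. With the block both shNR4A2 differences passed, at -0.86 and -0.85, and so they did without the filter on low counts. The gene rests on 32 to 162 counts a library.

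WISP1, a CCN gene known as a WNT1-inducible target (ENSG00000104415, chromosome 8), had 5 counts in all, spread over 4 libraries. In the 14 libraries at 0 counts, the limit that 3 counts set lay between 0.120 and 0.177 TPM. Other IGFBP and CCN genes were looked at from a list of 11 genes, with levels below named after their values were seen. NOV, WISP2 and WISP3, the remaining CCN genes, had group means of at most 0.713 TPM, and IGFBP1 and IGFBP5 had at most 1.32 TPM. IGFBPL1, an IGFBP-like gene, had between 25.7 and 38.3 TPM.

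IGFBP3 codes for the main IGF carrier of the blood and also has actions that do not need IGF (ENSG00000146674, chromosome 7, 45912245 to 45921874, minus strand). The shNT libraries held 12.3, 10.0 and 8.49 TPM without LPS and 149, 101 and 139 TPM with LPS. In shNR4A2 cells the libraries held 13.5, 10.6 and 12.6 TPM and, with LPS, 123, 74.0 and 127 TPM, and in shNR4A3 cells 14.5, 11.6 and 15.3 TPM and, with LPS, 212, 131 and 190 TPM. Control and LPS libraries stood apart in every line. Both knockdown lines overlapped shNT cells in each treatment, and with LPS the shNR4A3 libraries lay above those of shNR4A2. The log2 fold change with LPS was 3.88 (SE 0.178) in shNT cells, 3.42 (SE 0.227) in shNR4A2 cells and 3.92 (SE 0.212) in shNR4A3 cells, rises of 14.7-fold, 10.7-fold and 15.2-fold that passed in every fit. None of its 4 knockdown differences passed, the largest being 0.52 (SE 0.209) in shNR4A3 cells with LPS. With the replicate block that one was 0.50 and passed (also without the filter on low counts), as did -0.23 in shNR4A2 cells with LPS. The shNR4A3 difference without LPS, 0.48 (SE 0.168), passed only without the filter on low counts.

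IGFBP7 codes for a secreted protein of vascular basement membranes (ENSG00000163453, chromosome 4, 57030773 to 57110385, minus strand). It had 62.4, 72.4 and 59.5 TPM in the shNT control libraries and 56.9, 71.6 and 62.4 TPM with LPS. In shNR4A2 cells it had 82.2, 109 and 82.3 TPM in control and 83.8, 94.5 and 81.0 TPM in LPS libraries. The shNR4A3 libraries had 246, 307 and 266 TPM without LPS and 235, 260 and 258 TPM with LPS. The line separated the libraries in both treatments, with shNR4A3 above shNR4A2 and shNR4A2 above shNT, and control and LPS libraries overlapped in each line. In shNR4A3 cells the log2 fold change against shNT was 2.12 (SE 0.113) without LPS and 2.04 (SE 0.0915) with LPS, or 4.34-fold and 4.11-fold higher, and both passed in every fit. In shNR4A2 cells it was 0.49 (SE 0.150) without LPS, which missed the threshold but passed at 0.49 with the replicate block and in 3 other fits, and 0.50 (SE 0.0998) with LPS, which passed and was lost with shNT LPS replicate 1, 2 or 3 or shNR4A2 LPS replicate 1 left out. Set directly against each other, shNR4A2 cells had less IGFBP7 than shNR4A3 cells, by -1.62 (SE 0.134) without LPS and -1.54 (SE 0.0822) with LPS on the log2 scale, and these differences passed in every fit. IGFBP7 shares 270 exon bases with POLR2B and 94 with IGFBP7-AS1, both on the opposite strand. POLR2B had 2886 to 5776 counts a library and IGFBP7 604 to 2978, and without the strand setting reads from the shared bases cannot be assigned to either. IGFBP7-AS1 had at most 4 counts.

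IGFBP4, which binds IGFs and is cut by the protease PAPPA, varied within a narrow range (ENSG00000141753, chromosome 17, 40443461 to 40457731, plus strand). It had 52.1, 51.0 and 60.3 TPM in the shNT control libraries and 37.5, 38.4 and 36.6 TPM with LPS, so that the groups did not overlap. The fitted log2 fold change with LPS was -0.32 (SE 0.0967) in shNT cells and passed, but not with DESeq2, without the filter on low counts or with any library but shNT control replicate 2 left out. In the knockdown lines its log2 fold change with LPS was -0.09 (SE 0.131) in shNR4A2 and -0.23 (SE 0.111) in shNR4A3 cells, neither past the threshold. With LPS it was higher than in shNT cells by 0.44 (SE 0.0976) in shNR4A2 cells, at 44.8, 56.4 and 45.7 TPM, and by 0.39 (SE 0.0975) in shNR4A3 cells, at 40.7, 53.9 and 47.1 TPM. Both passed, and each kept its call in 1 of the 6 fits with a library left out. The latter also lost its call without the filter on low counts. Without LPS the differences were 0.21 (SE 0.115) and 0.30 (SE 0.104) and missed the threshold, the latter passing with the replicate block.

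IGFBP2, a binder of IGF2 in particular, ran from 17.6 to 40.8 TPM over all libraries (ENSG00000115457, chromosome 2, 216632828 to 216664436, plus strand). The shNT libraries with LPS had 28.1, 35.6 and 39.7 TPM and the shNR4A3 libraries with LPS 17.6, 23.5 and 24.8 TPM, without overlap. That difference, with a log2 fold change of -0.60 (SE 0.152), passed, and it was lost in the fit of all 18 libraries and in 4 of the 6 fits with a library left out (shNT LPS replicate 2 or 3, shNR4A3 LPS replicate 1 or 3). Without LPS it was -0.52 (SE 0.157) and missed the threshold, and the block gave -0.52 and a call, as did DESeq2 and the fit without the filter on low counts. In shNR4A2 cells the values were -0.34 (SE 0.200) and -0.22 (SE 0.150), called only with the block, at -0.35 and -0.21. Within each line, replicate 1 held the lowest of the 3 IGFBP2 levels in both treatments. IGFBP6, another binder of IGF2 (ENSG00000167779, chromosome 12, 53097436 to 53102345, plus strand), had 74 counts over the 18 libraries and between 0 and 12 in each. Its group means lay between 0.386 and 0.937 TPM, and at this depth a difference between groups was not detectable. The 1 library at 0 counts, shNR4A3 LPS replicate 2, allows up to 0.522 TPM at 3 counts.

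LPS shifted the scale on which levels are given. Over all genes tested, the median log2 ratio of TPM between LPS and control was -0.23 in shNT cells, -0.28 in shNR4A2 cells and -0.24 in shNR4A3 cells, and the fitted fold changes are given relative to it. IGFBP7 shows the effect: in shNT cells its TPM ratio was -0.03 and its fitted log2 fold change 0.19 (SE 0.118), which was not called. The sign also differed between the scales for IGFBP7 in both knockdown lines and for IGFBP2 in shNT and shNR4A3 cells, all uncalled.

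The direct comparison of the knockdown lines called IGFBP7 alone among the 6 tested, lower in shNR4A2 cells, without LPS (3.08% of all genes called, 1.94% higher and 1.14% lower) and with LPS (2.33%, 1.27% higher and 1.06% lower). Libraries of 2 of the 6 did not overlap in each treatment, against 19.0% and 21.1% of all genes tested. With the replicate block, CTGF also passed without LPS (11.6% of all genes did), at 0.63, higher in shNR4A2 cells. With LPS and the block (23.6% of all genes), CTGF (-0.33), IGFBP3 (-0.73), CYR61 (-0.58) and IGFBP2 (0.39) also passed. Whether LPS acted on a gene to a different degree in a knockdown line than in shNT cells was fitted as an interaction. None of the 6 passed, and edgeR called 0 of 16674 genes for shNR4A2 and 0 of 16428 for shNR4A3 (0% each), with 365 and 824 genes at an unadjusted p under 0.05 and 2 and 8 genes called by DESeq2. The interaction of CTGF was -0.25 (SE 0.306) for shNR4A2 and 0.66 (SE 0.223) for shNR4A3 on the log2 scale, the latter with a larger LPS difference from a lower starting level, and it passed only without the filter on low counts.

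The targets of the hairpins were read in the same libraries. NR4A2 had 4.16, 2.83 and 4.08 TPM in shNT and 1.82, 1.63 and 2.41 TPM in shNR4A2 control libraries, a log2 fold change of -0.91 (SE 0.228, adjusted p = 0.0359 by edgeR). That call held in 2 of the 6 fits with a library left out, and the other 3 target calls held in all. With LPS its log2 fold change was -1.52 (SE 0.192, adjusted p = 0.00265 by edgeR). NR4A3 in shNR4A3 cells had log2 fold changes of -2.47 (SE 0.490, adjusted p = 0.00767 by edgeR) without LPS and -0.82 (SE 0.0799, adjusted p = 0.000556 by edgeR) with LPS. The lower target levels are in the direction of the labels in all 4 comparisons.

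Genes of the surrounding pathway came from 7 lists and were tested with all genes by edgeR. The lists too were chosen with earlier results of these data known. Their counts and medians are therefore a description, and nothing is read from them. Among 11 IGF ligand, receptor and substrate genes, IGF1R, the receptor tyrosine kinase that IGF1 and IGF2 activate, was lower in both knockdown lines. It had 3.71, 3.96 and 5.01 TPM in the shNT control libraries, 1.99, 1.78 and 2.33 TPM in shNR4A2 and 1.33, 2.26 and 1.97 TPM in shNR4A3 control libraries. The shNT libraries overlapped those of neither knockdown line, while the knockdown lines overlapped each other. The log2 fold change of IGF1R against shNT without LPS was -1.05 (SE 0.153, adjusted p = 0.0022 by edgeR) in shNR4A2 cells and -1.14 (SE 0.176, adjusted p = 0.00144 by edgeR) in shNR4A3 cells. With LPS the log2 fold changes were -0.92 (SE 0.183, adjusted p = 0.0186 by edgeR) and -0.78 (SE 0.165, adjusted p = 0.0229 by edgeR), and both were lost without shNT LPS replicate 2 or 3, or without replicate 1 of the knockdown line with LPS. IRS1, a docking protein of the IGF1 and insulin receptors, rose with LPS in all 3 lines, by 1.64 (SE 0.169), 1.95 (SE 0.187) and 2.89 (SE 0.176) on the log2 scale in shNT, shNR4A2 and shNR4A3 cells. IRS2 rose with it, by 0.40, 0.47 and 0.68, the second of these held in 3 of the 6 fits with a library left out. With LPS, IRS1 was also higher in both knockdown lines than in shNT cells, by 0.69 (adjusted p = 0.0475 by edgeR) and 0.66 (adjusted p = 0.0339 by edgeR), calls that held in 1 and 3 of the 6 fits with a library left out. IGF1 had at most 0.058 TPM and IGF2 at most 0.451 TPM as group means, levels named after they were seen. INSR, the insulin receptor, and IRS2 were lower in shNR4A3 cells without LPS by -0.36 (adjusted p = 0.0232 by edgeR) and -0.34 (adjusted p = 0.0388), calls that held in 1 and 2 of the 6 such fits. Of the tested genes of this list, 1 of 8 fell in shNR4A2 cells without LPS (2.82% of all genes did) and 3 of 8 in shNR4A3 cells (3.32%), at list medians of -0.16 and -0.35 against -0.00 over all genes. With LPS, 1 of 8 rose and 1 fell in shNR4A2 cells (4.31% and 2.65% of all genes did) and 1 of 9 rose and 1 fell in shNR4A3 cells (3.99% and 2.46%), at list medians of -0.05 and -0.07.

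Among the IGFBP proteases and their inhibitors, a list of 17, metalloproteases differed between the lines. ADAM28, a metalloprotease that cuts IGFBP3, was higher in shNR4A2 cells by 1.49 (adjusted p = 0.0331 by edgeR) without and 1.51 (adjusted p = 0.011) with LPS, the first lost in 4 and the second in 1 of the 6 fits with a library left out. In shNR4A3 cells it was higher with LPS too, by 1.22 (adjusted p = 0.0497 by edgeR), a call that held in 1 of the 6 such fits. ADAM12, which also cuts IGFBPs, was higher in shNR4A2 cells by 1.00 (adjusted p = 0.045 by edgeR) without and 1.24 (adjusted p = 0.0249) with LPS, and MMP9, a gelatinase, was lower there with LPS by -1.19 (adjusted p = 0.0426), calls that held in at most 1 of the 6 such fits. ADAM9, a related metalloprotease, was higher in shNR4A3 cells by 0.51 (adjusted p = 0.00392 by edgeR) and 0.59 (adjusted p = 0.00357) without and with LPS, and PLAU, urokinase, by 0.47 (adjusted p = 0.0336) without LPS, where the PLAU call held in 1 of the 6 such fits. LPS raised MMP1, interstitial collagenase, by 3.81, 3.42 and 3.15 and PLAU by 1.00, 1.32 and 1.44 on the log2 scale in shNT, shNR4A2 and shNR4A3 cells. The MMP1 value in shNR4A3 cells ran from 2.58 to 5.26 over the other settings and left-out libraries. There its control libraries held 0, 1 and 7 counts. With LPS in shNT cells 3 of 12 tested genes of this list passed, a share near the 24.9% of all genes. These were MMP1, PLAU and STC2, a stanniocalcin, the last at 0.42 (adjusted p = 0.0124 by edgeR). PLAT, a serine protease, rose with LPS in shNR4A2 cells by 1.62 (adjusted p = 0.0385 by edgeR) and PAPPA2, which cuts IGFBPs, in shNR4A3 cells by 1.16 (adjusted p = 0.0488). The call of PLAT held in 3 of the 6 fits with a library left out, and that of PAPPA2 in none of them and in 1 of 5 other alternatives.

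Receptors of CCN proteins, a list of 12, held several genes that differed between the lines. SDC4, the heparan sulphate proteoglycan syndecan-4, had 16.6, 12.3 and 9.97 TPM in the shNT control libraries and 205, 183 and 220 TPM with LPS. Its log2 fold change with LPS was 4.18 (SE 0.167) in shNT, 4.07 (SE 0.193) in shNR4A2 and 4.37 (SE 0.217) in shNR4A3 cells. It was higher in both knockdown lines too, where CTGF was lower. Against shNT cells SDC4 differed by 1.45 (SE 0.183, adjusted p = 0.000869 by edgeR) and 1.35 (SE 0.178, adjusted p = 0.00324) in shNR4A2 cells without and with LPS, and by 0.93 (SE 0.181, adjusted p = 0.00681) and 1.12 (SE 0.195, adjusted p = 0.0102) in shNR4A3 cells. The last of these calls was lost without shNT LPS replicate 2. ITGB2, the beta chain of the leukocyte integrins, was higher in all 4 knockdown comparisons, by 0.62, 0.70, 0.70 and 0.75 on the log2 scale, and these calls held with each library left out. ITGA6, the laminin receptor chain, was higher in shNR4A2 cells by 1.46 (adjusted p = 0.00792 by edgeR) without LPS and by 1.59 (adjusted p = 0.0122) with LPS, the latter lost without shNT LPS replicate 2. ITGB5, the partner of the alpha V chain, was lower in shNR4A3 cells by -0.84 (adjusted p = 0.00134 by edgeR) without and -0.87 (adjusted p = 0.0019) with LPS. Also called were LRP1, an endocytic receptor, higher in shNR4A2 cells by 0.82 (adjusted p = 0.0211 by edgeR) without and 1.04 (adjusted p = 0.0184) with LPS, and ITGAM, the alpha M integrin chain, higher in shNR4A3 cells by 0.80 (adjusted p = 0.0146) and 0.82 (adjusted p = 0.0225). The call of LRP1 without LPS held in 2 of the 6 fits with a library left out, that with LPS was lost without shNT LPS replicate 1, and the calls of ITGAM held in 3 and 2 of the 6. With LPS, ITGA5, the fibronectin receptor chain, fell by 0.76, 0.53 and 0.67 on the log2 scale in shNT, shNR4A2 and shNR4A3 cells, the second of these held in 3 of the 6 such fits. ITGAV, the alpha V chain, rose by 0.81 in shNR4A3 cells and by 0.27 in shNT cells, where the call held in 1 of the 6 such fits. ITGA6 rose with LPS in shNR4A3 cells by 0.74 and held in 3. Of 11 tested receptors, 4 rose in shNR4A2 cells without LPS (3.63% of all genes did) and 4 with LPS (4.31%), at list medians of 0.14 and 0.38. In shNR4A3 cells 3 rose (3.91%) and 2 fell (3.32%) without LPS, and 4 rose (3.99%) and 1 fell (2.46%) with LPS, at list medians of 0.19 and 0.34. The medians over all genes in these comparisons lay between -0.01 and -0.00.

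**Figure D4:**
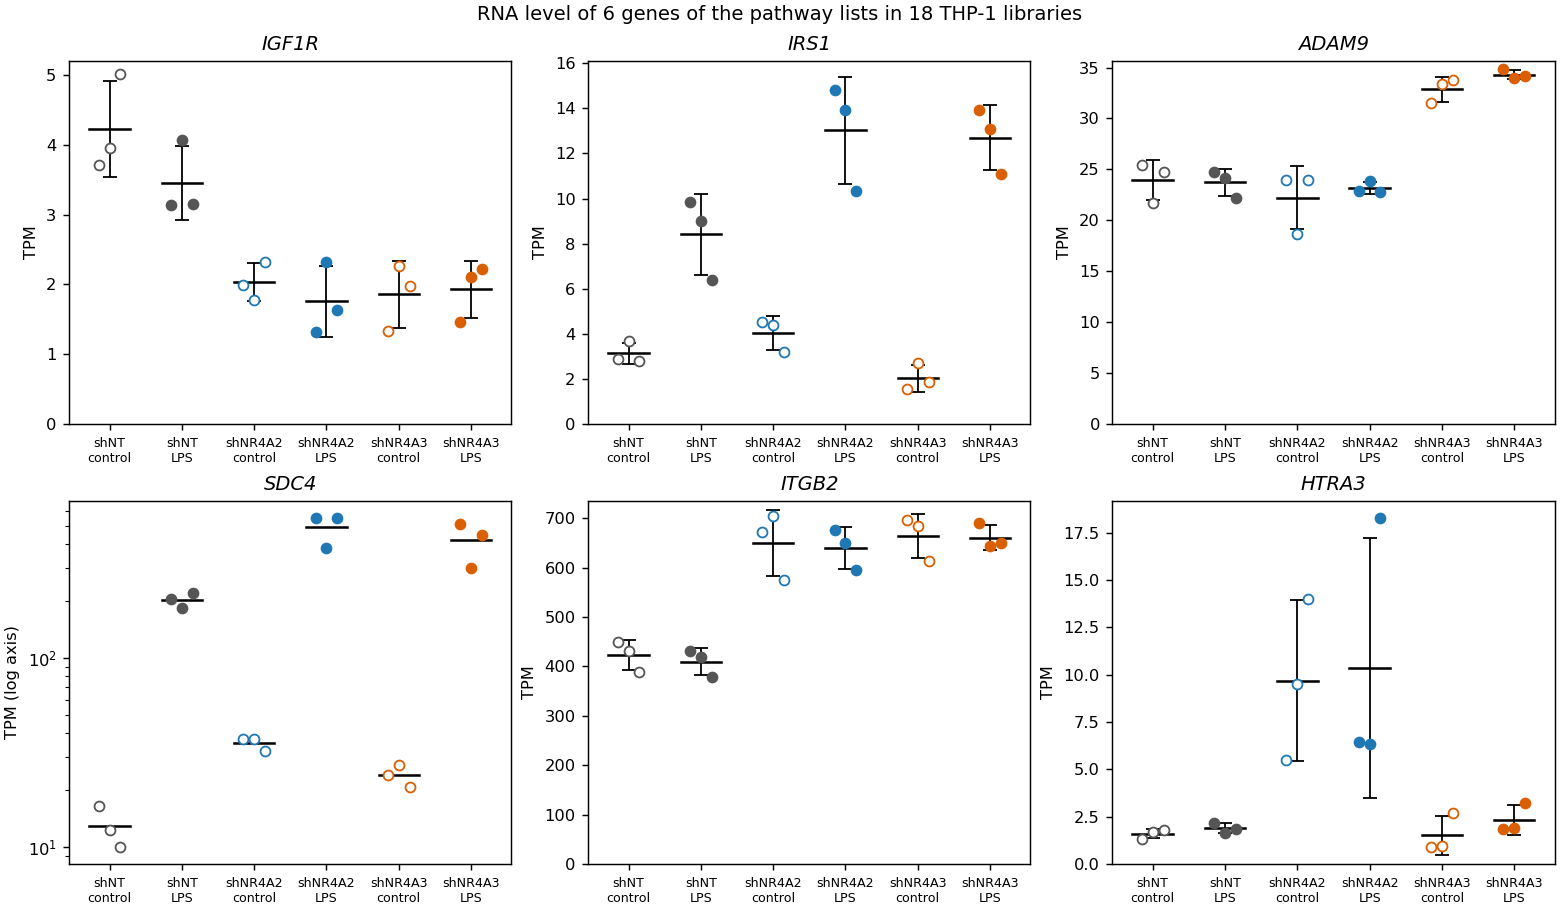
TPM of 6 pathway genes in each library, drawn per group, with open points for control, filled points for LPS, bars at the mean and whiskers of 1 SD on linear axes; SDC4 has a log axis. IGF1R lies lower and SDC4 and ITGB2 higher in the knockdown lines than in shNT cells, and HTRA3 is high in shNR4A2 cells.

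HTRA3, a secreted serine protease with an IGFBP-like domain, was the gene of the list of other IGFBP and CCN genes that differed most between lines. It had 1.32, 1.69 and 1.78 TPM in the shNT and 5.51, 9.53 and 14.0 TPM in the shNR4A2 control libraries. Its log2 fold change in shNR4A2 against shNT cells was 2.60 (SE 0.324, adjusted p = 0.00085 by edgeR) without LPS and 2.54 (SE 0.441, adjusted p = 0.0108) with LPS. Against shNR4A3 cells it was 2.60 (SE 0.406, adjusted p = 0.00335 by edgeR) without LPS and 2.16 (SE 0.473, adjusted p = 0.0556) with LPS, the latter not called. Over the other settings and left-out libraries, the value against shNT with LPS ran from 1.81 to 2.82. That against shNR4A3 without LPS ran from 2.25 to 3.32. The shNR4A2 LPS libraries held 6.45, 6.36 and 18.3 TPM of HTRA3. CRIM1, a membrane protein with an IGFBP-like motif, rose with LPS by 2.74 (SE 0.333), 3.55 (SE 0.571) and 4.42 (SE 0.472) in shNT, shNR4A2 and shNR4A3 cells, from group means of at most 0.758 TPM. The shNR4A2 value ran from 2.77 to 4.01 over the other settings and left-out libraries, with LPS libraries at 6.24, 2.16 and 13.2 TPM. Of the 5 genes of this list tested with LPS in shNT cells, CRIM1 was the 1 that passed (24.9% of all genes did), at a list median of 0.13 against -0.01 over all genes.

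All 15 YAP, TAZ, TEAD and Hippo kinase genes were tested, and with LPS in shNT cells SAV1, a scaffold of the Hippo kinases, rose by 0.85 (SE 0.0887), while LATS2 and STK4, kinases of the pathway, fell by 0.47 and 0.37 on the log2 scale, calls that held in 1 and 3 of the 6 fits with a library left out (list median -0.15, against -0.01 over all genes). VGLL4, a competitor of YAP for TEAD, fell with LPS by 0.43 in shNR4A2 cells, a call that held in 2 of the 6 such fits, and by 0.60 in shNR4A3 cells. SAV1 also rose with LPS in shNR4A2 and shNR4A3 cells, by 1.29 and 0.99, calls that held in all such fits. STK4 had a log2 fold change with LPS of -0.41 in shNR4A3 cells, held in 5 of the 6. In the comparisons with shNT, 1 gene at most passed in each, a share near that of all genes (6.45% and 6.96% in shNR4A2 cells, 7.23% and 6.45% in shNR4A3 cells): WWTR1, which codes for TAZ, at 0.99 (adjusted p = 0.0418 by edgeR) in shNR4A2 cells without LPS, TEAD1 at -0.57 (adjusted p = 0.0402) and TEAD4 at -0.81 (adjusted p = 0.0273) in shNR4A3 cells without and with LPS. Each of these 3 calls was lost in at least 4 of the 6 fits with a library left out. Of the 19 other target genes of YAP and TAZ, 15 were tested with LPS in shNT cells, and 5 rose (11.6% of all genes did) and 1 fell (13.3%), at a median of 0.10. The largest was CRIM1, followed by FJX1, a secreted Golgi kinase, at 1.63 (SE 0.468, a call lost with DESeq2 and held in 3 of the 6 fits with a library left out) and GADD45A, a stress response gene, at 1.01 (SE 0.104). F3, tissue factor, rose with LPS in every line and was lower in shNR4A3 cells without LPS by -1.03 (SE 0.119, adjusted p = 0.000178 by edgeR) and in shNR4A2 cells without LPS by -0.46 (adjusted p = 0.0445), the latter a call that held in 1 of the 6 fits with a library left out. MYOF, a membrane repair protein, was higher in shNR4A2 cells by 0.68 (adjusted p = 0.00484 by edgeR) without and 0.76 (adjusted p = 0.0107) with LPS. ARHGEF17 was lower there with LPS by -0.68 (adjusted p = 0.0175 by edgeR), held in 3 of the 6 such fits. In shNR4A3 cells AXL, a receptor kinase, was higher without LPS by 0.55 (adjusted p = 0.0363 by edgeR), and with LPS FJX1 was higher by 1.95 (adjusted p = 0.0258) and ASAP1 by 0.38 (adjusted p = 0.0464), of which none held in more than 2 of the 6 such fits.

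TGF-beta ligands, receptors, SMADs and target genes, 19 in all and each tested, held 3 genes that rose and 3 that fell with LPS in shNT cells (11.6% and 13.3% of all genes did), at a median of -0.02 against -0.01. THBS1, thrombospondin 1, an activator of latent TGF-beta, rose by 3.11 (SE 0.306), 4.21 (SE 0.235) and 4.28 (SE 0.222) in shNT, shNR4A2 and shNR4A3 cells. SMAD7, the inhibitory SMAD, rose by 1.64 (SE 0.0998), 1.44 (SE 0.149) and 1.14 (SE 0.146), and TGFBR3, a co-receptor, by 0.86, 1.02 and 1.55. SMAD6, another inhibitory SMAD, was higher in shNR4A3 than in shNT cells without LPS, by 0.61 (SE 0.108, adjusted p = 0.00394 by edgeR). SKI, a repressor of SMADs, was higher there by 0.55 (adjusted p = 0.0123 by edgeR) without LPS, and its relative SKIL by 0.54 (adjusted p = 0.0491) with LPS, calls that held in 5 and 2 of the 6 fits with a library left out.

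For each of the 6 genes, the transcripts with the most similar pattern were sought over 16935 genes, by Pearson's r of log2 CPM over the 18 libraries, which share treatment and line and so are no independent points. The nearest to CTGF was BMP2, a bone morphogenetic protein (r = 0.996), with group means of 10.0 TPM in shNT control cells and 34.5 TPM with LPS, followed by CLUHP3 (0.983) and DUSP16 (0.983), a phosphatase of MAP kinases. BMP2 was also among the 3 nearest over the 6 group means. IGFBP3 ran closest with IL4I1 (0.994), DRAM1 (0.992) and NFKB1 (0.991), which codes for an NF-kappaB subunit. IGFBP7 ran closest with F13A1 (0.952), the coagulation factor XIII A chain of monocytes, PLOD3 (0.951) and IFI27 (0.944), an interferon-induced gene. Nearest to IGFBP2 were CTSG (0.915), the granule protease cathepsin G, MZT2A (0.909) and MLC1 (0.909), nearest to IGFBP4 were PGBD5 (0.929), PBXIP1 (0.916) and GAS2L1 (0.903), and nearest to CYR61 were PRDM8 (0.913), SF1 (0.907) and HNRNPL (0.906). For these 5 members none of the 3 genes recurred over the 6 group means. Among the members themselves r was 0.939 between CTGF and IGFBP3 and 0.793 between CTGF and CYR61.

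The cells were checked against marker genes. All 10 monocytic markers had counts in every library, led by SPI1 with a median of 711 TPM, CEBPA at 578 and LYZ at 515 TPM. The 8 fibroblast markers, a cell type that makes much CTGF, reached at most 1.47 TPM in any library, with COL1A2 at 0 in 9 of the 18 libraries, and summed to 2.82 ± 0.236 TPM in shNT control and 3.48 ± 0.201 TPM in shNT LPS cells. Of the 5 endothelial markers PECAM1, which monocytes also express, had a median of 193 TPM, and the other 4 reached at most 1.23 TPM. The 4 epithelial markers reached at most 1.59 TPM. The summed monocytic markers differed between the lines, at 2145 ± 190 TPM in shNT, 2619 ± 113 in shNR4A2 and 3128 ± 225 in shNR4A3 control cells (SD, n = 3 each), with LYZ, lysozyme, at 192, 615 and 883 TPM. With LPS the sums were 1362 ± 141, 1949 ± 139 and 2274 ± 155 TPM. LYZ made up most of the difference in the control sums. Of the 10 markers, LYZ, CSF1R (85.0, 145 and 166 TPM), ITGAM (29.4, 44.2 and 49.5), SPI1 (571, 657 and 713) and CD68 (2.69, 3.20 and 4.83) had control means in this order of the lines, and the other 5 (CEBPA, FCGR1A, CD33, CD14 and MPO) did not. Across the lines the sums had the order of IGFBP7 in both treatments and the reverse order of CTGF without LPS alone, since with LPS CTGF was lowest in shNR4A2 cells. Their part in the differences of these genes was not tested.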

How the data were processed

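RNA was measured in 18 polyadenylated libraries, read from both ends. The authors deposited raw counts for each Ensembl gene, with exon lengths. The submitters' processing notes name Trimmomatic 0.36, STAR 2.5.2b, featureCounts of Subread 1.5.2 and GRCh38, and the strand setting is not given in the sources used here. Reads from overlapping genes on opposite strands therefore cannot be told apart. No pair of libraries held identical counts. TPM was computed from counts and deposited lengths. Limits set by 3 counts cover counting error only.

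The 8 genes and all lists were chosen with earlier results of these data known. Fold changes came from edgeR 4.0.16 in R 4.3.3 (filterByExpr, TMM, quasi-likelihood F test, Benjamini-Hochberg adjustment over all genes tested, limit 0.05), each comparison on its own 6 libraries, or 12 for an interaction. The procedure was tested on simulated data. P-values set a group difference against the spread between the 3 libraries of a group, moderated over genes. They do not cover differences between hairpins or between separately made lines. Named beside the 8 genes were, per list and comparison of a knockdown line with shNT, at most 4 genes called with the largest absolute log2 fold change, per list and LPS comparison 3, and the 3 genes nearest to each tested member. Alternatives were DESeq2 1.42.0, its size factors (RLE), no filter, a block on the replicate number, 1 fit of all 18 libraries, RPKM on TMM library sizes for the levels, and each library left out. The numbers in the titles were taken to pair libraries where the residuals of each same-numbered pair correlated above 0.1, which held in 8 of 11 comparisons, with r from 0.159 to 0.533 there, and not for LPS in shNT cells (r = 0.0598 for replicate 2) or the interactions. Some genes of the pathway lists are not reported here.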

Additional observations from a re-analysis of the deposited data

How the results depend on the processing

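Among the 8 genes, the calls of CTGF and IGFBP3 with LPS, of CTGF in both knockdown lines, of IGFBP7 in shNR4A3 cells and of CYR61 with LPS in shNT and shNR4A3 cells kept their direction and their side of the threshold under every alternative and with each library left out. No called fold change of the 6 tested genes changed sign, but 11 of those not called did under some alternative or left-out library, 7 of them interactions. The other 4 were IGFBP3 in shNR4A2 against shNT cells with LPS (-0.37 to 0.04), IGFBP2 with LPS in shNR4A3 cells (-0.02 to 0.22), and, between the knockdown lines, IGFBP2 without LPS (-0.04 to 0.36) and IGFBP4 with LPS (-0.02 to 0.11). The calls of IGFBP2, of IGFBP4 and of IGFBP7 in shNR4A2 against shNT cells with LPS were each lost with at least 1 library left out. Of 153 calls of listed genes, 87 held throughout and 65 were lost with at least 1 library left out.

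The replicate block, used where the numbers pair the libraries in 8 of 11 comparisons, raised the number of genes called to 4751 for LPS in shNR4A2 cells, to 3733 and 4385 in shNR4A2 against shNT cells (without and with LPS), to 2267 and 3401 in shNR4A3 against shNT cells and to 1800 and 3666 between the knockdown lines. In these comparisons 3, 4, 6, 4, 5, 2 and 5 of the 6 tested genes were called. For the interactions, where the numbers are not shown to pair the libraries, the block called 8 and 22 genes. Without the filter on low counts 1611 and 1843 genes were called in shNR4A2 against shNT cells, 1839 in shNR4A3 against shNT cells with LPS, 838 and 1102 between the knockdown lines, and 29 and 138 for the interactions. Of the 6, it called 3 in shNR4A2 (4.21% of all genes) and 4 in shNR4A3 against shNT cells without LPS (1467 genes, 3.88%), 2 between the knockdown lines with LPS (2.80%) and 1, CTGF, for the interaction of shNR4A3 (0.314%), shares of all genes with a count. DESeq2 called 698 genes between the knockdown lines with LPS, 2 and 8 for the interactions, and 2 of the 6 in shNR4A2 against shNT cells without LPS (1287 genes, 3.36% of those with a count). With all 18 libraries in 1 fit, 4601 genes were called for LPS in shNR4A2 cells, 1691 in shNR4A2 against shNT cells with LPS and 1032 between the knockdown lines with LPS, and 2 of the 6 in shNR4A2 against shNT cells without LPS (1346 genes, 7.95%). The cause of these shifts was not tested.

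With 1 library left out, genes called ran from 517 to 1128 and from 342 to 1477 in shNR4A2 against shNT cells, from 649 to 975 and from 383 to 1693 in shNR4A3 against shNT cells, from 249 to 470 and from 94 to 217 between the knockdown lines, and from 0 to 8 and from 0 to 44 for the interactions. In the knockdown comparisons the fewest came without shNT control replicate 3, shNT LPS replicate 2 or shNR4A3 replicate 1, and the most without replicate 2 of a knockdown line, except with LPS between the knockdown lines, where they came without shNR4A2 LPS replicate 3. Of the 6, the calls ran from 1 to 2 and from 1 to 3 in shNR4A2 against shNT cells, without and with LPS. In shNR4A3 against shNT cells they ran from 2 to 3 and from 2 to 4. With every library in, 6.45%, 6.96%, 7.23% and 6.45% of all genes were called in these 4 comparisons. The shares in the left-out fits are not given, and nothing is read from these counts. The 3 nearest genes changed for each of the 6 when sought over the 6 group means, sharing 1 for CTGF and 0 for the others. IGFBP6 and WISP1 were limited by depth, and small differences of genes with few counts were not detectable at this depth.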
